A study of Mus musculus with 5 samples.

Results

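Molecular chaperones of the cytosol and mitochondria, with their cochaperones and heat shock factors, were followed as a group of 41 listed genes in mouse adipocytes given plant polyphenols. The members were taken by gene symbol, each represented by its brightest probe set among those that name that gene alone. Of the 41 genes, 38 had such a probe set, against 18193 genes on the arrays in all. All 38 reached the floor of intensity 8.39 on at least 1 array, as did 12439 genes in all, and these are the genes counted below. The remaining listed genes were not analysed here: Ptges3 because its 2 probe sets also name a pseudogene, and Hsp90ab1 and Hsf1 because no probe set was named for them in the annotation used.

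All arrays carried RNA of C3H10T1/2, a mouse mesenchymal cell line, after full differentiation into fat cells. The groups were butein for 6 h, sulfuretin for 6 h and their DMSO solvent control, and resveratrol for 6 h with a DMSO control of its own, called DMSO1, with 1 array per group and doses not given in the labels. Butein and sulfuretin are plant polyphenols with a catechol ring, the first an open-chain chalcone and the other a ring-closed aurone, and resveratrol is a stilbene. The deposited intensities fall into 2 normalization sets (butein, sulfuretin and DMSO, then resveratrol and DMSO1), so each treatment was set against the control of its own set. With a single array per group no difference has a replicate error. Differences are given as log2 of the intensity ratio and called at 2-fold, a log2 difference of at least 1.

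The cells' label was checked against marker genes. Of 10 adipocyte markers 8 were measured, and all 8 were counted, with Adipoq (adiponectin) between 6122 and 7202 and Fabp4 (the fatty acid binding protein of fat cells) between 7338 and 9340 over the arrays. Progenitor and fibroblast transcripts were also present, Col3a1 between 3270.4 and 4253. The progenitor gene Dlk1, the blood cell gene Ptprc and the macrophage gene Adgre1 were under the floor on every array. The other 3 of 5 macrophage and blood markers were counted at low intensity, with Csf1r between 15.2 and 21.1. Of 4 skeletal muscle markers 2 were counted, Acta1 (45.3 to 179) and Ckm (10.1 to 18.4). Of 5 osteoblast and chondrocyte markers 2 were counted, Col2a1 (25.8 to 51.6) and Sp7 (13.4 to 20.2). All 8 adipocyte markers were lower with butein than in DMSO, by less than 2-fold (median log2 difference -0.25), and their summed intensity was 20939 with butein and 24025 in DMSO. All 8 were also lower with resveratrol than in DMSO1 (median -0.11), while 5 were higher and 3 lower with sulfuretin than in DMSO. Among progenitor and fibroblast genes, Col1a1 (-0.28) and Col3a1 (-0.24) were lower with butein too, and of the 5 counted 3 were lower and 2 higher. Whether this bears on the chaperone differences was not tested. In RNA from a whole culture, fewer cells of a type and less RNA per cell cannot be told apart.

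Chaperones bind unfolded proteins and help them fold, refold or reach degradation. HSP70 proteins work in cycles of ATP hydrolysis, in which HSP40 (J-domain) proteins deliver the client and trigger hydrolysis and HSP110 and BAG proteins drive nucleotide exchange. HSP90 completes the folding of kinases and receptors, small heat shock proteins hold unfolding proteins, the ring-shaped CCT complex folds actin and tubulin, and HSP60 with HSP10 folds proteins inside mitochondria. In the heat shock response, heat shock factors bind repeated GAA and TTC blocks, the heat shock element, near the starts of inducible members of these families.

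The promoters of the members are shown first, because genes of these families are textbook targets of heat shock factors. A window of 250 bases before and 50 after each annotated start was taken from RefSeq (mouse build GRCm38.p6) and searched for the 3-unit element, which is GAA, TTC and GAA with any 2 bases between the blocks, or its reverse complement with TTC, GAA and TTC. The shorter 2-unit element is GAA and TTC, or TTC and GAA, again with any 2 bases between them, and each form reads the same on both strands. Every 3-unit element contains 2-unit elements. Windows were available for 33 of the 41 members. The 3-unit element was found in the windows of 5 of these (15.2%), Hsph1, Chordc1, Hspd1, Hspe1 and Dnajb6, and in 0.662% of the 27025 genes in the promoter table. The 2-unit element was found for 15 of the 33 members (45.5%) and for 17.0% of all genes. None of 47 other chaperones or cochaperones, 18 endoplasmic reticulum (ER) chaperones or 25 proteasome subunits with a window held the 3-unit element. Nor did any of 5 heat shock factor targets outside the chaperone families, of which 1 held the 2-unit element. The window of the HSP40 gene Dnajb1, the member with the largest butein difference below, held neither element.

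Below are 6 windows, each 5′ to 3′ on the gene's own strand. Capitals mark the 3-unit element in Hsph1 (minus strand, chr5:149636266-149636565), Hspe1 (plus strand, chr1:55087898-55088197), Chordc1 (plus strand, chr9:18292017-18292316) and Dnajb6 (plus strand, chr5:29735648-29735947). They mark the 2-unit element in Hspa1b (minus strand, chr17:34959189-34959488), and Hspa4 (minus strand, chr11:53300430-53300729) holds neither. Hsph1 and Dnajb6 have more than 1 annotated start, and the window with the lowest coordinate is given. Hsph1 and Hspa4 are shown as relatives of the HSP110 family with a large and a small butein difference. The other 4 were chosen after their values were seen, as the remaining holders of the long element and the heat-inducible HSP70 gene.
Hsph1: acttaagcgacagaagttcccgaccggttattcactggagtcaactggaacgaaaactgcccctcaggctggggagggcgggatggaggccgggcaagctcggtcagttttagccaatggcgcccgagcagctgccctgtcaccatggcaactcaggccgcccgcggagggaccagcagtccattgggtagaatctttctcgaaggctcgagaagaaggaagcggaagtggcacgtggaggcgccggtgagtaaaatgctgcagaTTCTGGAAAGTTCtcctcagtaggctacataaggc
Hspa4: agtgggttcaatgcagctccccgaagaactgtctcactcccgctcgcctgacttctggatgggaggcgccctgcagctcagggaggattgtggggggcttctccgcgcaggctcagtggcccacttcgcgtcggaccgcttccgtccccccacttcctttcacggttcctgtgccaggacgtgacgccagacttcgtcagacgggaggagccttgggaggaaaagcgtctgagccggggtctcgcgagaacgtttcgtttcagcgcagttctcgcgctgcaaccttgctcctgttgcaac
Hspe1: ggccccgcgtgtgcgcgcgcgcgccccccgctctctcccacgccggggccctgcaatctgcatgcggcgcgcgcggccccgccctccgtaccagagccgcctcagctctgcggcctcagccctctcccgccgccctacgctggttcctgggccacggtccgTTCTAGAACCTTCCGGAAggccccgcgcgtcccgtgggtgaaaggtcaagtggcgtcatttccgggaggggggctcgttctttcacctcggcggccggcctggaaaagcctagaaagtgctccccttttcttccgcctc
Chordc1: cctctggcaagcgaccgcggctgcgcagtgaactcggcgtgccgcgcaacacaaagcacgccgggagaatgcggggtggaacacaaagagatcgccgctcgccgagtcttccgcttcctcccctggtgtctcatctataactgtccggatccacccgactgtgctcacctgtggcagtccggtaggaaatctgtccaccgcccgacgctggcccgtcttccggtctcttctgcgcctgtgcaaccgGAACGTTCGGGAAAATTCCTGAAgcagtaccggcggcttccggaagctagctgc
Dnajb6: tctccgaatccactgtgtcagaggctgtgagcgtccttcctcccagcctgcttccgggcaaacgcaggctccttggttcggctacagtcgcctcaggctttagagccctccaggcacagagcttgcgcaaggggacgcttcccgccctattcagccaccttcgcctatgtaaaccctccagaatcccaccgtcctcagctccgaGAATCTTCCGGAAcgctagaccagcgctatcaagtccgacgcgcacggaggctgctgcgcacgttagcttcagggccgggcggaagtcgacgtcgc
Hspa1b: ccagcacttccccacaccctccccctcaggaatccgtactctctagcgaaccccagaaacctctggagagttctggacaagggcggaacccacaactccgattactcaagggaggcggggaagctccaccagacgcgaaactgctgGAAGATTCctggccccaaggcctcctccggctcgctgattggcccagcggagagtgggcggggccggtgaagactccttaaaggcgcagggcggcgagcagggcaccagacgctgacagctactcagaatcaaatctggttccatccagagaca

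Hspd1 and Hspe1, the genes of mitochondrial HSP60 and HSP10, start back to back, and their windows share 285 bases. The element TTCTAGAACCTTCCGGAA at chr1:55088059-55088076 lies at positions -89 to -72 of Hspe1 and, read on the other strand, at -144 to -127 of Hspd1, so it is 1 stretch of DNA counted for both genes. Chordc1 had the longest run, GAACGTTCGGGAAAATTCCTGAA, across its start from position -4 to 19. Among the 8 members at least 2-fold higher with butein that had a window, 1 held the 3-unit element and 6 the 2-unit element, against 4 and 9 of the 24 other measured members. The 2 heat-inducible HSP70 genes, Hspa1a and Hspa1b, had 296 of 300 window positions in common, with the same 2-unit element at position -104. The map of element positions sets these letters beside each member's butein difference. A match describes letters in a window, and none of the arrays measured binding.

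**Figure D1:**
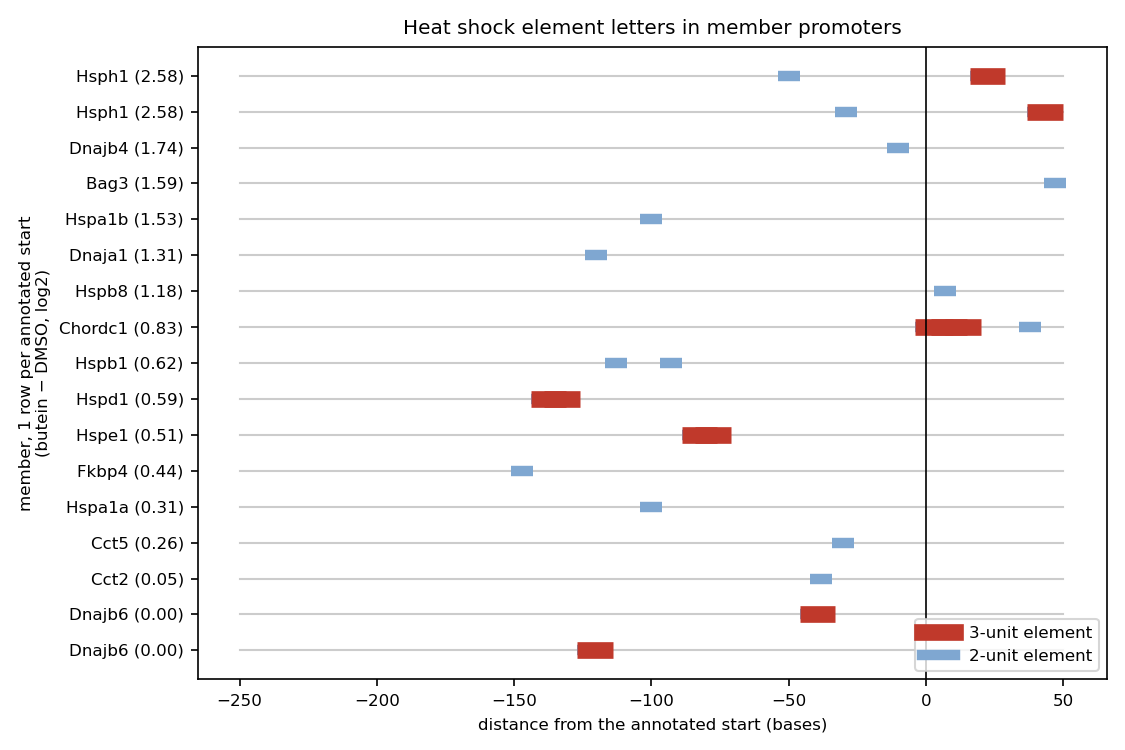
Positions of heat shock element letters in the promoter windows of members that hold any, with 1 row per annotated start and the butein minus DMSO log2 difference in brackets; the x axis is the distance from the start in bases. Red bars (3-unit) appear for Hsph1 at 2.58 and for Dnajb6 at 0.00 alike, and blue bars (2-unit) cover 6 of the members above 1.

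Butein gave the widest response of the chaperone genes. Compared with DMSO, 10 of the 38 members were at least 2-fold higher, where 2.03% of all counted genes were, and 0 were 2-fold lower, where 0.297% of all genes were. The 10 were the HSP40 genes Dnajb1, Dnajb4 and Dnaja1, the HSP110 gene Hsph1, the HSP70 genes Hspa1b and Hspa8, the cochaperone gene Bag3, the small heat shock gene Hspb8, the HSP90 gene Hsp90aa1 and the factor gene Hsf2. In all, 29 members were higher, 6 lower and 3 exactly equal. Of all 12439 counted genes, 4107 were higher, 4610 lower and 3722 equal. The members' median log2 difference was 0.41, against 0 for all counted genes. At 1.5-fold, 16 members were higher and 1 lower, against 5.01% and 2.47% of all genes. Because there is 1 array per group, and the members were chosen with earlier results of these data known, these are descriptions of the arrays. When limma took DMSO and DMSO1 as replicates after joint quantile normalization, 0 members passed an adjusted p of 0.05 (lowest 0.304, for Dnajb1 and Hsph1), as did 0 of all 12115 genes in that fit. At an unadjusted p under 0.05, 8 members were higher and 0 lower, where 2.43% and 0.52% of all genes were.

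**Figure D2:**
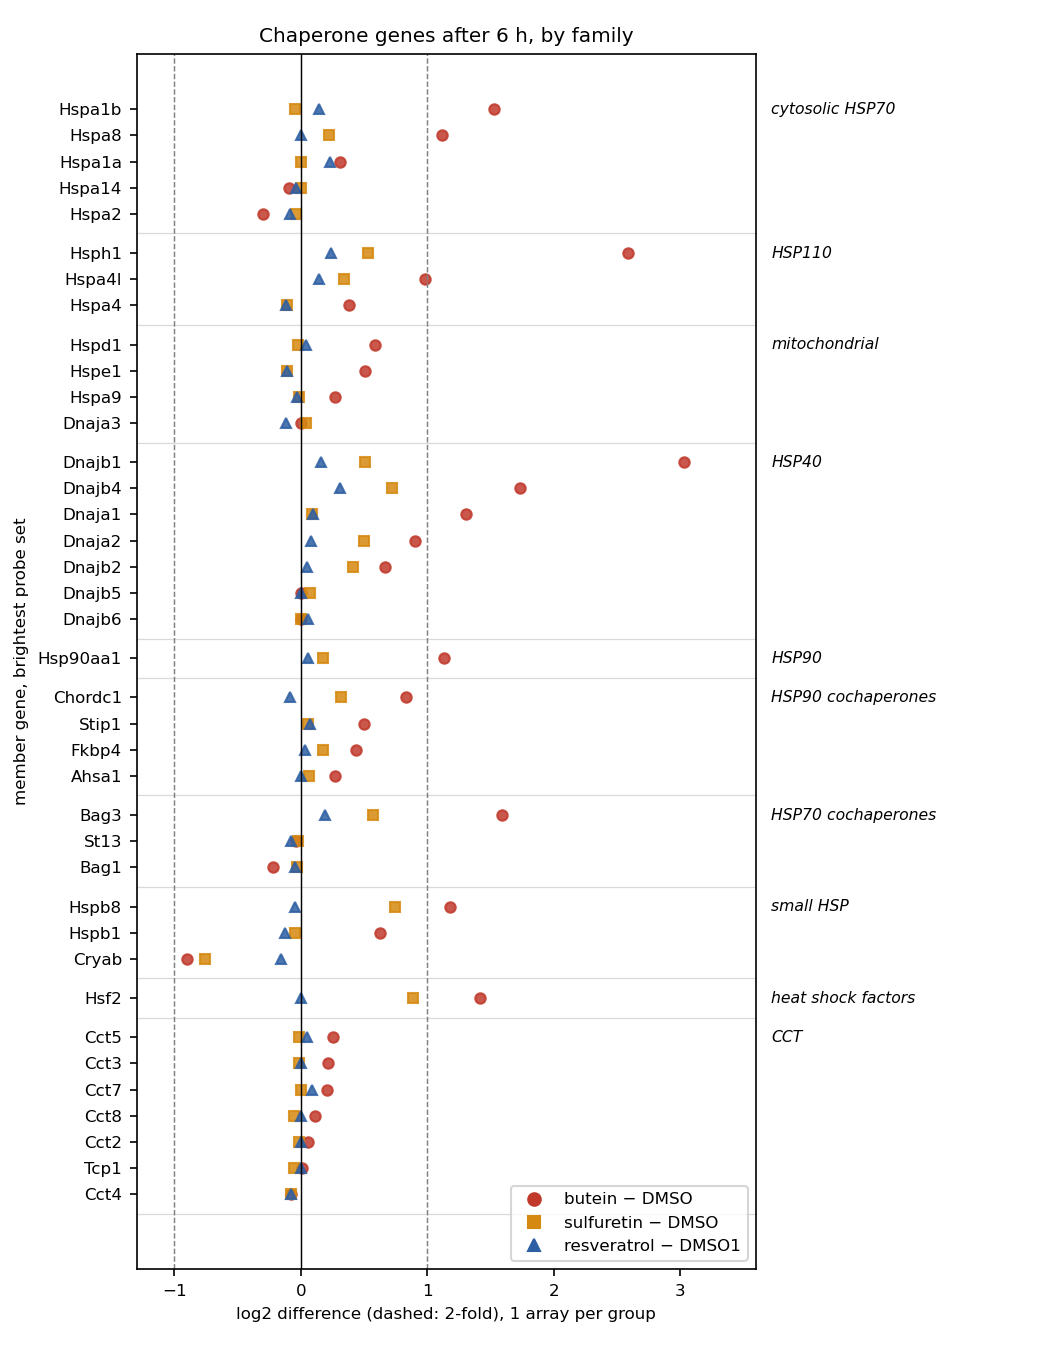
Log2 difference of each of the 38 members on its brightest probe set, by family; circles give butein minus DMSO, squares sulfuretin minus DMSO and triangles resveratrol minus DMSO1, from 1 array per group. Circles reach 3.03 (Dnajb1) and pass the dashed 2-fold line for 10 members, while squares and triangles stay between the dashed lines.

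Among the J-domain proteins, Dnajb1, which encodes the main stress-inducible HSP40, read 1398 with butein, 242 with sulfuretin and 171 in DMSO. In the other set it read 253 with resveratrol and 227 in DMSO1. The butein array thus stood far above the other 4, and the log2 difference to DMSO was 3.03 on the brightest probe set and 3.37 on the dimmer one. On that dimmer probe set the solvents themselves were apart, at 190 in DMSO1 and 63.0 in DMSO. Dnajb4 read 602 with butein, 298 with sulfuretin and 181 in DMSO, and 281.5 with resveratrol and 227 in DMSO1, a butein difference of 1.74. Dnaja1, a farnesylated J-domain protein gene, read 1329.6 with butein, 572 with sulfuretin and 537 in DMSO, and 756 with resveratrol and 708 in DMSO1. Its butein difference was 1.31, and sulfuretin differed from DMSO by 0.09.

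The other HSP40 genes were less than 2-fold different with butein. Dnaja2 (0.90) and Dnajb2 (0.66) were higher than in DMSO, by more than 1.5-fold. Dnajb6, whose product restrains polyglutamine aggregation, read 371 with butein and 371 in DMSO, values that were exactly equal. A dimmer Dnajb6 probe set read 95.5 with butein and 64.3 in DMSO (0.57), and another 36.3 with butein and 38.8 in DMSO (-0.10), so the probe sets of this gene did not give a single answer. Dnajb5 read 13.5 on both the butein and the DMSO array, low on the arrays' scale. The 7 HSP40 genes had a median of 0.90 with butein, 0.41 with sulfuretin and 0.08 with resveratrol.

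The HSP70 genes divided by paralog. Hspa1b, a heat-inducible HSP70, read 1622 with butein, 544 with sulfuretin and 561 in DMSO, against 723 with resveratrol and 653 in DMSO1. All 3 of its probe sets were higher with butein, by 1.53, 1.73 and 1.46. Hspa1a and Hspa1b are near-identical copies, so the Hspa1b probe sets may read both transcripts, and the 1 probe set named for Hspa1a was dim, at 12.2 with butein and 9.81 in DMSO.

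Hspa8, the constitutive HSC70 of most cells, was already bright. It read 4773 with butein, 2569 with sulfuretin and 2201 in DMSO, and 2522 on both the resveratrol and the DMSO1 array. The butein difference was 1.12, and 3 other probe sets gave 0.67, 1.05 and 2.39, the last from a dim probe set with 167 with butein and 31.8 in DMSO. After joint quantile normalization the brightest probe set was 1.02 above DMSO and 0.89 above DMSO1, on either side of 2-fold. That probe set is of a class that can bind related transcripts. Hspa2, best known from the testis, read 37.3 with butein, 44.7 with sulfuretin and 46.0 in DMSO, against 81.8 with resveratrol and 86.8 in DMSO1. It was thus slightly lower with butein (-0.30), as was Hspa14, the ribosome-associated HSP70 relative (-0.09).

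**Figure D3:**
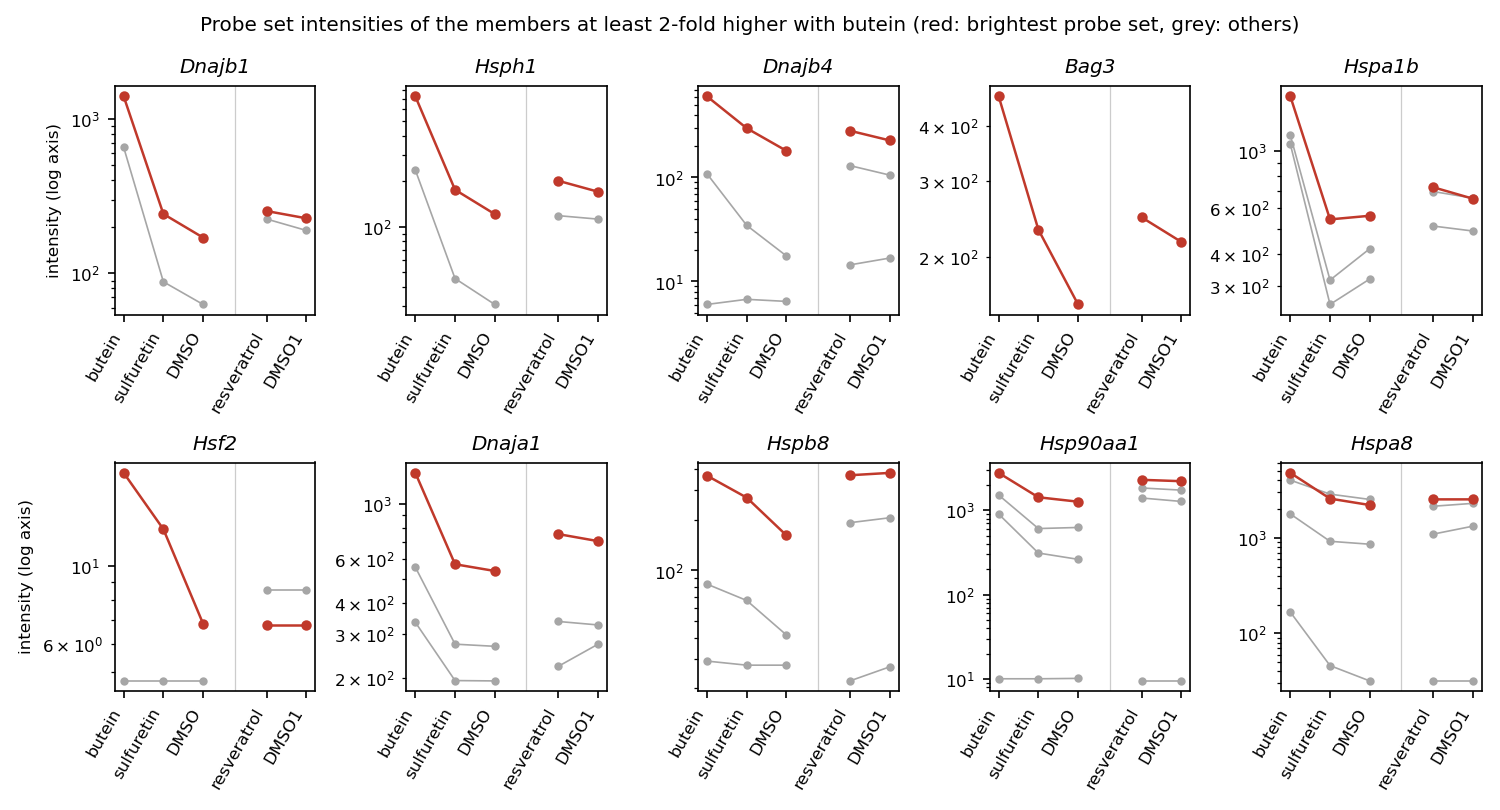
Intensity (log axis) of every probe set at or above the floor for the 10 members at least 2-fold higher with butein, on the 5 arrays, with the brightest probe set in red and others in grey; the grey line divides the 2 normalization sets. Butein is the highest of its set of 3 arrays for each red line, and the resveratrol and DMSO1 points lie close together.

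Of the nucleotide exchange factors, Hsph1, which encodes HSP110, read 728 with butein, 176 with sulfuretin and 121 in DMSO. With resveratrol it read 201 and in DMSO1 171. On a dimmer Hsph1 probe set butein was 2.95 above DMSO, and the solvents were apart, at 112 in DMSO1 and 30.7 in DMSO. On the brightest, the Hsph1 difference was 2.58, second only to Dnajb1 among the members. Its relatives differed less: Hspa4l was 0.98 higher, just under the criterion and at low intensity (23.1 with butein, 11.7 in DMSO), and Hspa4 0.38 higher on the brightest probe set but -0.07, -0.10 and -0.11 on dimmer ones.

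Bag3, which links HSP70 to selective autophagy, read 469 with butein, 231 with sulfuretin and 156 in DMSO, and 247 with resveratrol and 217 in DMSO1. Its difference with butein was 1.59. The other HSP70 cochaperones did not share it: Bag1, a nucleotide exchange factor, was at -0.22 and St13, which encodes HIP, at -0.04.

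HSP90 is represented by Hsp90aa1, the more inducible of the cytosolic pair. It read 2780.3 with butein, 1429.6 with sulfuretin and 1267 in DMSO, and 2302 with resveratrol and 2217 in DMSO1. Butein was 1.13 above DMSO on this probe set and 1.28 and 1.78 above it on other bright ones. The DMSO1 array alone was 0.81 above DMSO, and on the probe set with the difference of 1.78 it read 1737.5, against 263 in DMSO, so the level of this gene in solvent was not the same in the 2 sets. After joint quantile normalization butein was 1.05 above DMSO but 0.37 above DMSO1 and 0.71 above the mean of both, so this call too rests on the DMSO array. The 4 HSP90 cochaperone genes were each higher with butein and none by 2-fold (2.03% of all counted genes). Chordc1, whose product binds HSP90, led them at 0.83 (313 with butein, 176 in DMSO), followed by Stip1, which encodes the HSP70 to HSP90 adaptor HOP (0.50), the immunophilin gene Fkbp4 (0.44) and Ahsa1, an activator of HSP90 ATPase (0.27).

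Set against DMSO, the small heat shock genes went in opposite directions with butein. Hspb8, which encodes a partner of BAG3, read 365 with butein, 271 with sulfuretin and 162 in DMSO, and 367 with resveratrol and 379 in DMSO1. Butein was 1.18 above DMSO, yet -0.05 against DMSO1 on the other set's scale and 0.33 above it after joint quantile normalization, so this call rests on the DMSO array. Hspb1 (HSP27) was 0.62 higher with butein and 0.98 on a second probe set. Cryab, the gene of alpha B-crystallin, read 171 with butein, 189 with sulfuretin and 320 in DMSO (319.5), against 154 with resveratrol and 172 in DMSO1. It was the lowest member with butein (-0.90) and with sulfuretin (-0.76), and a dimmer probe set gave -0.66 and -0.67. After joint quantile normalization Cryab differed from DMSO by -0.88 with butein and -0.73 with sulfuretin, and by -1.33 in DMSO1. Both compounds thus lay above DMSO1, so the direction of the Cryab difference rests on the DMSO array.

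Hsf2, a heat shock factor gene, read 18.3 with butein, 12.7 with sulfuretin and 6.85 in DMSO, and 6.78 on both arrays of the other set. Its difference of 1.42 starts from a DMSO value under the floor, and a second probe set read 4.71 on both the butein and the DMSO array, so its size is uncertain.

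Of the 4 mitochondrial chaperone genes, 3 were higher with butein and 1 was exactly equal, with a median of 0.39, 1 past 1.5-fold and 0 past 2-fold. Of all counted genes 5.01% were 1.5-fold higher and 2.03% were 2-fold higher, so counts among 4 genes say little. Hspd1 read 2189 with butein, 1437 with sulfuretin and 1457 in DMSO, and 2066 with resveratrol and 2006 in DMSO1. Hspe1, its partner across the shared promoter, read 1602 with butein, 1042 with sulfuretin and 1124 in DMSO, and 1005 with resveratrol and 1082 in DMSO1. The pair's butein differences were close, at 0.59 and 0.51, and their sulfuretin differences were -0.02 and -0.11. Hspa9, the mitochondrial HSP70 mortalin, read 951 with butein, 780.2 with sulfuretin and 787 in DMSO, and 1251 with resveratrol and 1277 in DMSO1. Its butein difference was 0.27, and Dnaja3, the mitochondrial J-domain gene, was exactly equal on the butein and DMSO arrays, at 173.

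The 7 CCT subunit genes among the members were nearly level with each compound. With butein they ran from -0.08 (Cct4) to 0.26 (Cct5), with a median of 0.11 and 0 past 1.5-fold. Of all counted genes 5.01% were 1.5-fold higher and 2.47% lower, so 0 of 7 is near these shares. With sulfuretin they ran from -0.08 to 0.00 and with resveratrol from -0.07 to 0.09. Cct6a, a further subunit gene listed below with the chaperones that are not members, was at 0.14 with butein, -0.04 with sulfuretin and -0.15 with resveratrol.

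The probe sets of a gene gave a measure of how far a call depends on the probe chosen. The 38 members had 104 probe sets, 97 of them at or above the floor, and 27 members had more than 1 such probe set. For the 10 members called with butein there were 17 further probe sets, from 9 of the genes. Of these, 14 had the same sign, 11 also passed 2-fold the same way and 0 passed it the opposite way. The plot of all probe sets shows the 6 that did not pass 2-fold. Probe sets of Dnajb4 (-0.10), Hsp90aa1 (-0.01), Hsf2 (0.00) and Hspb8 (0.08) lay near 0, and brighter ones of Hspa8 (0.67) and Dnaja1 (0.78) were higher by less than 2-fold. Over all members, 36 of 59 further probe sets had the same sign with butein as the brightest. Probe sets of a gene read the same RNA on the same arrays, so their agreement does not replace replicate arrays.

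**Figure D4:**
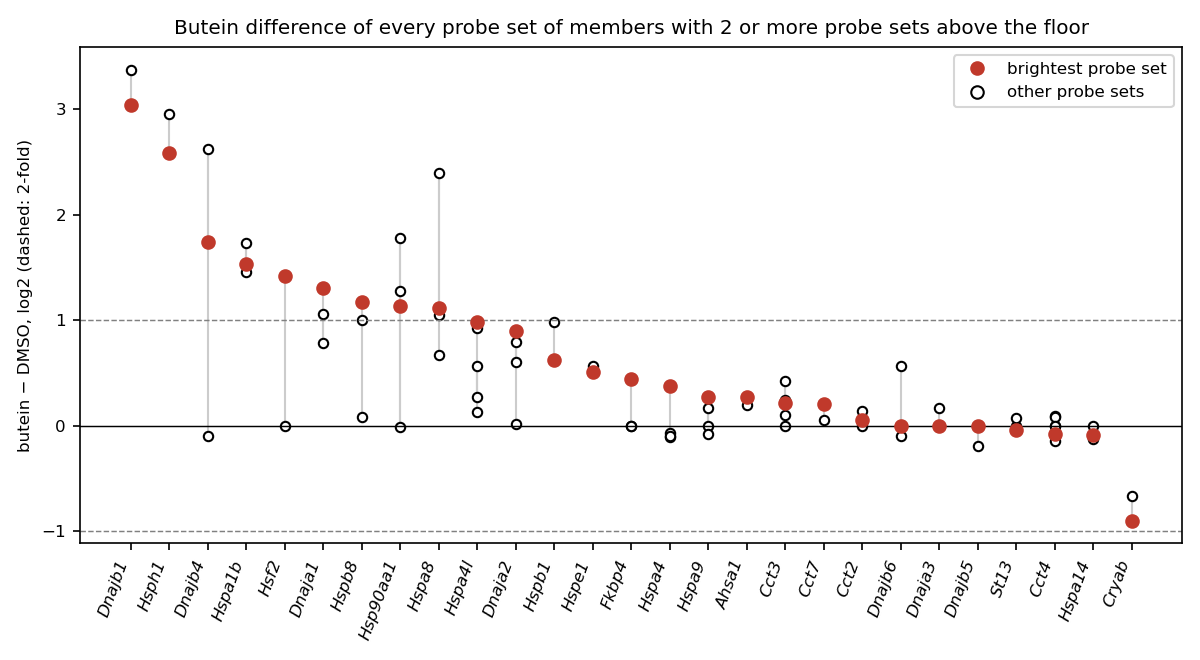
Butein minus DMSO log2 difference of each probe set at or above the floor, for the 27 members with more than 1, ordered by the brightest probe set (red); open circles are other probe sets of the same gene. Both Dnajb1 points lie above 3 and both Hsph1 points above 2.5, while Hspa8 spans 0.67 to 2.39.

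The solvent arrays gave a second yardstick. After the 5 arrays were quantile normalized together, the DMSO and DMSO1 arrays differed by a median size of 0.22 over the 38 members and by as much as 1.33 (Cryab). The butein difference was larger than the solvent difference of the same gene for 24 members (28.3% of all counted genes). These included the 10 past 2-fold, but those were picked for a large butein difference, so their passing adds no support. Of those 10, Hsf2 entered the counted genes only through its butein and sulfuretin arrays. With sulfuretin the difference was larger than the solvent difference for 9 members (17.6% of all genes) and with resveratrol for 8 (13.6%). On the brightest probe sets of Dnajb1, Hsph1, Bag3 and Dnaja1 the solvent arrays then differed by 0.042 or less in size, and for Hspb8 by 0.81. Dimmer probe sets were compared only as deposited. On that scale DMSO1 was above DMSO by 1.87 on the dimmer probe set of Hsph1 and 0.49 on its brightest. For Dnajb1 these values were 1.59 and 0.41. For Dnaja1 the dimmer probe sets gave 0.49 and 0.29, on either side of the brightest at 0.40. The median over all counted genes was 0.54.

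Sulfuretin gave small differences in these genes. Compared with DMSO, 0 members were 2-fold higher, where 0.193% of all genes were, and 0 were 2-fold lower, where 0.0482% were. At 1.5-fold, 3 members were higher (1.36% of all genes) and 1 lower (0.378%): Hsf2 (0.89), Hspb8 (0.74) and Dnajb4 (0.72), and Cryab (-0.76). Bag3 (0.57), Hsph1 (0.53), Dnajb1 (0.51), Dnaja2 (0.50) and Dnajb2 (0.41) were also higher. Of the other members largest with butein, Hspa1b was at -0.05 and Dnaja1 at 0.09. Dimmer Hspa1b probe sets were lower with sulfuretin, at -0.33 and -0.40. In all 19 members were higher, 17 lower and 2 equal, and the median was 0.00. Of all 12439 counted genes, 4331 were higher, 4060 lower and 4048 equal. Hsf2 was counted only through its butein and sulfuretin arrays, so its place in this list was partly set by the floor. Its second probe set read 4.71 with both sulfuretin and DMSO. In the limma fit, with both DMSO arrays as control and 1 sulfuretin array, its difference was 1.24.

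Butein and sulfuretin were applied for the same time, but whether their doses matched is not known, and both differences use the same DMSO array. Set against butein directly, sulfuretin was at least 2-fold lower for 6 members, where 1.04% of all genes were, and 2-fold higher for 0, where 0.0965% were. The 6 were Dnajb1 (-2.53), Hsph1 (-2.05), Hspa1b (-1.58), Dnaja1 (-1.22), Bag3 (-1.02) and Dnajb4 (-1.02). At 1.5-fold 12 members were lower and 0 higher, against 2.83% and 0.981% of all genes. For Hspb8 (-0.43), Hsf2 (-0.53) and Cryab (0.14) the compounds lay closer together. In the limma fit, whose spread comes from the DMSO and DMSO1 arrays alone (1 residual degree of freedom), 6 members were lower and 0 higher with sulfuretin at an unadjusted p under 0.05, where 0.858% and 0.0743% of all genes were. At an adjusted p of 0.05 there were 0 members and 0 of all genes. The sulfuretin minus butein differences in that fit were -2.46 for Dnajb1, -0.41 for Hspb8 and 0.16 for Cryab. They carry no replicate error of either compound.

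Resveratrol gave the smallest differences. Compared with DMSO1, 0 members were 2-fold higher and 0 lower, where 0.0804% and 0.0643% of all genes were, and 0 passed 1.5-fold either way, where 0.338% and 0.362% did. The members ran from -0.16 (Cryab) to 0.31 (Dnajb4), with 17 higher, 14 lower and 7 exactly equal, and a median of 0. Of all 12439 counted genes, 4090 were higher and 4226 lower. By limma 0 members were higher and 0 lower at an unadjusted p under 0.05, where 0.14% and 0.0991% of all genes were, with 0 after adjustment. Hsph1 (0.24), Hspa1a (0.23), Bag3 (0.19) and Dnajb1 (0.16) followed Dnajb4. Exact equality between arrays was common in these data, at 4123 of 12439 counted genes for resveratrol and DMSO1 and 3722 for butein and DMSO.

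Neighbouring protein quality systems were set beside the members by lists of other genes. Of 4 counted heat shock factor targets outside the chaperone families, 2 were 2-fold higher with butein, where 2.03% of all counted genes were. The list was chosen with earlier results of these data known, so this count is no independent support. Zfand2a, which encodes an arsenite-inducible partner of the proteasome, read 740.3 with butein, 140 with sulfuretin and 103 in DMSO (2.84), and 209 with resveratrol and 200.3 in DMSO1. Ier5, an immediate early gene, read 363 with butein, 71.97 with sulfuretin and 60.4 in DMSO (2.59). Ier5 also read 144 with resveratrol, against 73.6 in DMSO1 (0.97), a larger resveratrol difference than that of any member. The collagen chaperone gene Serpinh1 was at 0.27 with butein and the inositol transporter gene Slc5a3 at -0.20.

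Of 50 counted chaperones and cochaperones that are not members, 0 passed 2-fold with any compound, and their median was 0 with butein. With butein 2.03% of all counted genes were 2-fold higher and 0.297% lower, so 0 in lists of 20 to 50 genes is near these shares. The largest differences of the 50 with butein were Hspa13 (0.61) and Cdc37l1 (-0.62). ER chaperones had 0 of 20 past 2-fold with butein and a median of 0.25, led by Hspa5 (0.89) and Dnajb9 (0.84). Of the 20, 19 were higher with butein, where 4107 of all 12439 counted genes were. With sulfuretin 19 of the 20 were again higher, where 4331 of all 12439 were. Their sulfuretin median was 0.20, where the members' median was 0.00. The 31 proteasome subunits had a median of 0.15 with butein, led by Psmc6 (0.83) and Psmd11 (0.67), and 0 passed 2-fold. Whether these lists differ from the members could not be tested with 1 array per group.

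**Figure D5:**
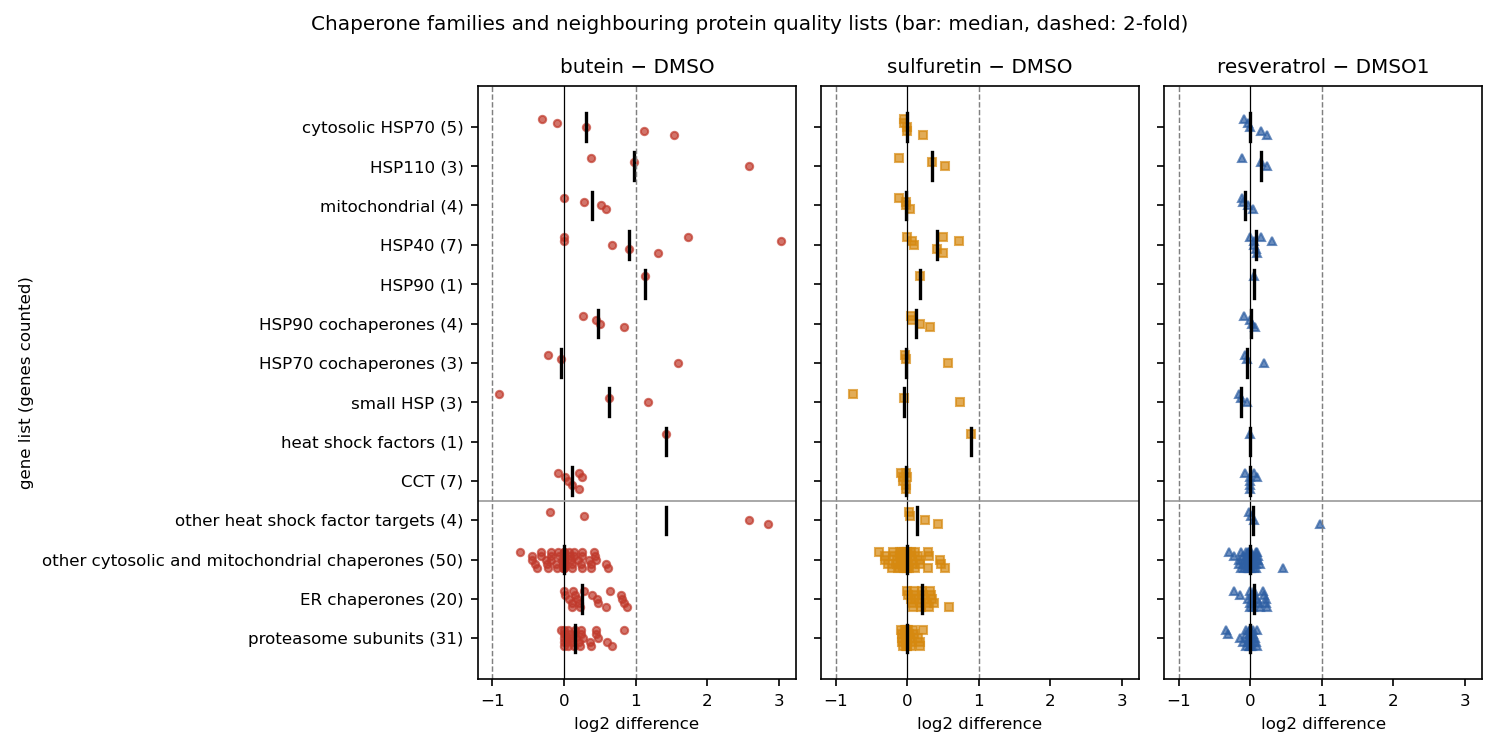
Log2 differences of the counted genes in each chaperone family (above the grey line) and in neighbouring lists (below it), with 1 panel per compound against its own control; points are genes, black bars are medians and dashed lines mark 2-fold. With butein, HSP40, HSP110 and HSP90 genes reach beyond 1 while the 7 CCT genes and the 50 other chaperones stay inside the lines.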

How the data were processed

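RNA of 5 samples was hybridised to Affymetrix mouse arrays, 1 array per group. The deposited values are probe set intensities on a linear scale (1.40 to 9340 over the arrays), made with RMA per the submitters' processing notes (background step and version: not given in the sources used here). Their sorted values nearly coincide within each of 2 sets, so normalization appears to have been run per set. Log2 was taken without a pseudocount.

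Of 45037 probe sets, 34945 name 1 gene, 932 several and 9160 none in the platform annotation; symbols were updated by gene ID through RefSeq (GRCm38.p6), which held 34741 of them. Each gene is represented by its brightest probe set (by mean log2 over the 5 arrays). The floor is the median, over probe sets, of that mean, and a gene counts if any array reaches it. Values within 1e-06 on the log2 scale were called equal. Calls are 2-fold differences without a test. Values on all arrays are printed for members past 2-fold and for paralog and mitochondrial members, and other members by their difference; of each neighbouring list up to 6 genes past 2-fold, or else the 2 largest, are named. Chordc1, Dnajb6, Cryab, Hspa1a, Hspa4l, Serpinh1 and Slc5a3 were given more room after their values were seen. The members and lists were chosen with earlier results of these data known. The steps were tested on simulated data. Alternatives were other fold criteria, floors, probe set rules, normalizations and controls, and limma. Tools were limma 3.58.1 in R 4.3.3, and pandas 2.3.3, numpy 2.4.6 and matplotlib 3.10.9 in Python 3.11.15.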

Additional observations from a re-analysis of the deposited data

How the results depend on the processing

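No paired analysis was possible because each group holds 1 array. The number of arrays limits precision throughout. The 10 members higher with butein became 16 at 1.5-fold, 4 at 3-fold, 6 with the other DMSO array as control and 0 by limma, and the count of 0 lower became 1 at 1.5-fold and 1 with the other DMSO array. The 10 higher were also 9 with the floor at percentile 75, where Hsf2 was not counted. They were 9 without probe sets of classes that can bind several transcripts, where Hsph1 had no probe set left. They were 7 with the mean of all probe sets. After joint quantile normalization they were 8 with the other DMSO array and 7 with the mean of both. For sulfuretin, the 0 higher became 3 at 1.5-fold. They became 1 under joint quantile normalization with its own, the other or both DMSO arrays as control. The 0 lower became 1 at 1.5-fold and 2 with the other DMSO array. For resveratrol, the other DMSO array gave 4 higher and 1 lower, or 1 higher and 1 lower after joint quantile normalization. The 6 members lower with sulfuretin than with butein became 12 at 1.5-fold, 2 at 3-fold and 0 by limma. That count of 6 was 4 under joint quantile normalization and 7 without probe sets of classes that can bind several transcripts. The cause was not tested, except that criteria of other size and the 2 scales of the other DMSO array change these counts by construction. With that array as deposited the median of all counted genes was -0.54 for butein, -0.52 for sulfuretin and 0.53 for resveratrol.

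The members' butein median of 0.41 was 0.44 with a floor at percentile 75, 0.38 with joint quantile normalization, 0.28 with the mean of all probe sets, 0.35 with median centring, 0.04 with the other DMSO array (0.039) and 0.38 (0.379) without probe sets of classes that can bind several transcripts. The sulfuretin median of 0.001 was 0.024 with joint quantile normalization, 0.072 with the mean of both DMSO arrays and 0.13 with the other one after it, -0.061 with median centring and -0.26 with the other DMSO array. The resveratrol median of 0 was 0.035, 0.051 and 0.075 under the same 3 quantile settings and 0.44 with the other DMSO array. Hspb8 turned to -0.055 with the other DMSO array. Over the alternatives in which each was measured, 5 of the other members called with butein stayed past 2-fold: Dnajb1 (2.62 to 3.20), Hsph1 (2.09 to 2.77), Dnajb4 (1.404 to 1.81), Hspa1b (1.31 to 1.73) and Bag3 (1.11 to 1.59). The remaining 4 kept their sign but fell under 2-fold in some: Hsp90aa1 (0.33 to 1.78), Hsf2 (0.71 to 1.96), Hspa8 (0.89 to 2.39) and Dnaja1 (0.91 to 1.31). The promoter count of 5 became 15 with the 2-unit element.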
